A study of Mus musculus with 4 samples.

Results

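Loops in gene deserts are the called chromatin loops for which neither anchor lies within 50 kb of the body of any protein-coding gene. They were chosen by position alone, from the anchor coordinates and the RefSeq gene annotation, without using any contact value. Of the 30437 loop calls in the 4 deposited lists, 915 (3.01%) met this rule, and they formed 481 of 12920 distinct loops (3.72%). Calls were merged into 1 distinct loop where the midpoints of both anchors were at most 20 kb apart, and a distinct loop counted as a desert loop when every call in it met the rule. A further 28 desert calls fell into 18 distinct loops that also held calls closer to a gene, and these are left out of the counts of distinct desert loops.

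The loops come from Micro-C, a chromosome conformation method that cuts chromatin with micrococcal nuclease, applied to granulosa cells collected by puncturing the ovaries of 21-day-old mice. Follicle growth had been driven in every mouse with 5 IU of the equine gonadotropin eCG, known as PMSG too, for 46 h in one label field and 44 h in another. The PMSG group was collected at 0 h, without human chorionic gonadotropin (hCG), and the hCG group at 6 h after 5 IU of hCG, with 2 libraries in each group. The labels give no strain or genotype and do not say whether the libraries are from different animals. P-values here therefore measure the spread between samples, which may in part be technical. Each sample had 2 to 3 technical replicates, and its single list does not separate them. The files hold contacts and no expression, so the labelled cell type could not be checked against its marker genes. The 4 lists held 6533 to 8305 loops, and the contacts at desert loop pixels summed to 9055 to 10303 per library.

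A chromatin loop in such a map is a pair of sites that touch more often than their surroundings do. In mammals many loops form where cohesin extrudes chromatin until it meets bound CTCF, and others join enhancers and promoters. Gene deserts are long stretches without protein-coding genes, and those beside developmental regulators often hold distant enhancers, non-coding RNA genes and microRNA clusters. In granulosa cells the ovulatory surge of luteinizing hormone, which hCG stands in for, switches cells from follicular growth to ovulation and luteinization.

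Desert anchors hold no protein-coding gene, and the transcripts annotated in and between many of them are non-coding RNAs. Mature microRNAs that lie between the anchors of desert loops are shown for some of the loops described here, from RefSeq on GRCm38.p6 (the assembly of mm10). All are written 5′ to 3′, and the capitals mark the seed, bases 2 to 8, with which a microRNA pairs with its targets. They were chosen with the values of their loops known, and others, such as Mir195b inside the loops around Nr4a2, are not shown.
mmu-miR-99a-5p: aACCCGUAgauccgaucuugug
mmu-miR-100-5p: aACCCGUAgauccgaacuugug
mmu-let-7c-5p: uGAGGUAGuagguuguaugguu
mmu-miR-125b-5p: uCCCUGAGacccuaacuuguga
mmu-miR-205-5p: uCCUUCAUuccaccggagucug
mmu-miR-3964: aUAAGGUAgaaagcacuaaa

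The first pair share the seed ACCCGUA although they lie on different chromosomes, miR-99a at chr16:77598940-77598961 and miR-100 at chr9:41531437-41531458, both on the plus strand. On chromosome 16, let-7c (chr16:77599672-77599693) and miR-125b (chr16:77646279-77646300) lie near miR-99a, beyond the annotated end of the lncRNA gene Mir99ahg. These microRNAs lay between the anchors of 2 desert loops in the gap from Usp25 to Cxadr. miR-100 lay between the anchors of a 100 kb desert loop called in hCG replicate 1 only, with 109 contacts against 48.0 expected. miR-205 (chr1:193507503-193507524, minus strand) lay inside an 85 kb loop called in 3 lists. miR-3964 (chr15:29713337-29713356, minus strand) lay inside the 645 kb loop between Dnah5 and Ctnnd2, which ranked second among the desert loops of all 4 lists by its smallest ratio of observed to expected contacts.

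Non-coding promoters also sat inside desert anchors. Of the RefSeq promoter windows (250 bases before to 50 bases from the annotated start), 29 windows of 27 genes lay wholly inside an anchor of a desert loop called in at least 2 lists. A pair of them are given because their anchors take part in loops called in all 4 lists, with the bases from the start onward in capitals. The window of Gm41484, an lncRNA gene, is chr16:87246644-87246943 on the minus strand, and that of Mir99ahg is chr16:77329078-77329377 on the plus strand.
Gm41484: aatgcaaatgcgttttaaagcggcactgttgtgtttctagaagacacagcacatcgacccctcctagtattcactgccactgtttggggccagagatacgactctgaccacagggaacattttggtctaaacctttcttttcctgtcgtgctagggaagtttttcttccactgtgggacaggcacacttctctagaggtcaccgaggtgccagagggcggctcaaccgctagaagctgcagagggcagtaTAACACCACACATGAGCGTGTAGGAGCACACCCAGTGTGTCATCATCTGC
Mir99ahg: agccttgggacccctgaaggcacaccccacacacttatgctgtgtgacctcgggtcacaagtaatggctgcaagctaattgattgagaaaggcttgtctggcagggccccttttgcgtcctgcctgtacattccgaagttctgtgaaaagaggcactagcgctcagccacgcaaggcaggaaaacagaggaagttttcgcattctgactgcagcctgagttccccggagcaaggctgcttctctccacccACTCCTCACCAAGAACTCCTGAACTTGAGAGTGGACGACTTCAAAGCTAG

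Their G and C content was 51.0% and 53.7%. Each window was searched on both strands for TGACGTCA, the full cyclic AMP response element bound by CREB, a factor downstream of the LH receptor. It was in 1.79% of the 32851 promoter windows of the table and in 0 of the 29 windows inside desert anchors. No match says only that these letters are not in these windows.

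Desert loops made up a small share of every list. They numbered 243 of 8305 calls in PMSG replicate 1, 233 of 6533 in PMSG replicate 2, 222 of 7664 in hCG replicate 1 and 217 of 7935 in hCG replicate 2. As shares these were 2.93% (Wilson 95% interval 2.58 to 3.31%, counting error only), 3.57% (3.14 to 4.04%), 2.90% (2.54 to 3.30%) and 2.73% (2.40 to 3.12%). The group means were 3.25% ± 0.453 (SD, n = 2) before hCG and 2.82% ± 0.115 (SD, n = 2) after it, a difference of -0.431 percentage points. The PMSG libraries were the upper pair, but PMSG replicate 1 and hCG replicate 1 were almost level. With 2 libraries against 2, the two-sided exact permutation test over libraries gave p = 0.333, the smallest it allows, and 0.4 after Benjamini-Hochberg adjustment over the 6 tests made over libraries. Without PMSG replicate 2, the shortest list, the difference was -0.110 points, and without PMSG replicate 1 it was -0.751.

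The share of loops was low for the room that deserts take up. Sequence more than 50 kb from any protein-coding gene made up 36.2% of the length between the first and last gene of each chromosome, or 941 of 2600 Mb. Of single anchors, 11.01% lay there. Another 4873 calls (16.01%) had exactly 1 desert anchor, so most desert anchors were joined to a site nearer to a gene. These are counts over the whole lists and were not tested.

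By their medians, desert loops reached further than other loops in each library, and they were longer before hCG than after it. Their median span, the distance between anchor midpoints, was 315 kb in PMSG replicate 1, 350 kb in PMSG replicate 2, 175 kb in hCG replicate 1 and 235 kb in hCG replicate 2. The groups did not overlap, and both PMSG libraries were above both hCG libraries. Averaged by group this was 332.5 ± 24.7 kb before and 205 ± 42.4 kb after hCG (SD, n = 2), a difference of -127.5 kb (exact permutation test, two-sided, p = 0.333, the smallest possible, adjusted 0.4). Other loops had medians of 175 and 190 kb before hCG and 150 and 160 kb after it, a difference of -27.5 kb. Desert loops therefore exceeded the other loops of their own list by 140, 160, 25 and 75 kb, a mean of 100 ± 61.8 kb (SD, n = 4), which an exact sign-flip test over the 4 libraries gave p = 0.125, the smallest it allows (adjusted 0.375). That excess was itself 150 ± 14.1 kb before hCG and 50 ± 35.4 kb after it (SD, n = 2), a comparison chosen after the values were seen (difference -100 kb, exact permutation p = 0.333). The rule sets part of the excess, since a desert loop around a gene has both anchors over 50 kb from it and so spans over 100 kb. Desert loops with no gene between their anchors had medians of 197.5 and 220 kb before hCG and 100 and 125 kb after it. Those medians were above the ones of other loops before hCG and below them after it.

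Short calls made up more of the desert loops after hCG, and long calls less, and other loops shifted the same way. Among desert calls, loops of up to 100 kb numbered 39 and 30 in the PMSG lists and 76 and 58 in the hCG lists, or 16.05% and 12.9% against 34.2% and 26.7%. Of these short calls 14, 10, 38 and 23 were in no other list, and those found in another list as well were also more numerous in both hCG libraries. Desert calls in 1 list only had median spans of 362.5 and 360 kb before hCG and of 100 and 170 kb after it. Desert calls found in at least 2 lists had medians of 300 and 350 kb against 290 and 307.5 kb, which overlap between the groups and differ by -26.3 kb (exact permutation p = 0.667), an alternative chosen after the data were seen. By bin size, the difference was -36.3 kb for 5 kb bins, -185 kb for those of 10 kb and -112.5 kb for those of 25 kb. Loops over 500 kb were 35.8% and 37.8% of desert calls before hCG and 26.1% and 29.5% after it. Among other calls, loops of up to 100 kb were 30.5% and 25.8% before hCG and 35.6% and 33.1% after it. Those over 500 kb were 13.1% and 13.7% of other calls before hCG and 10.8% and 11.2% after it.

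**Figure D1:**
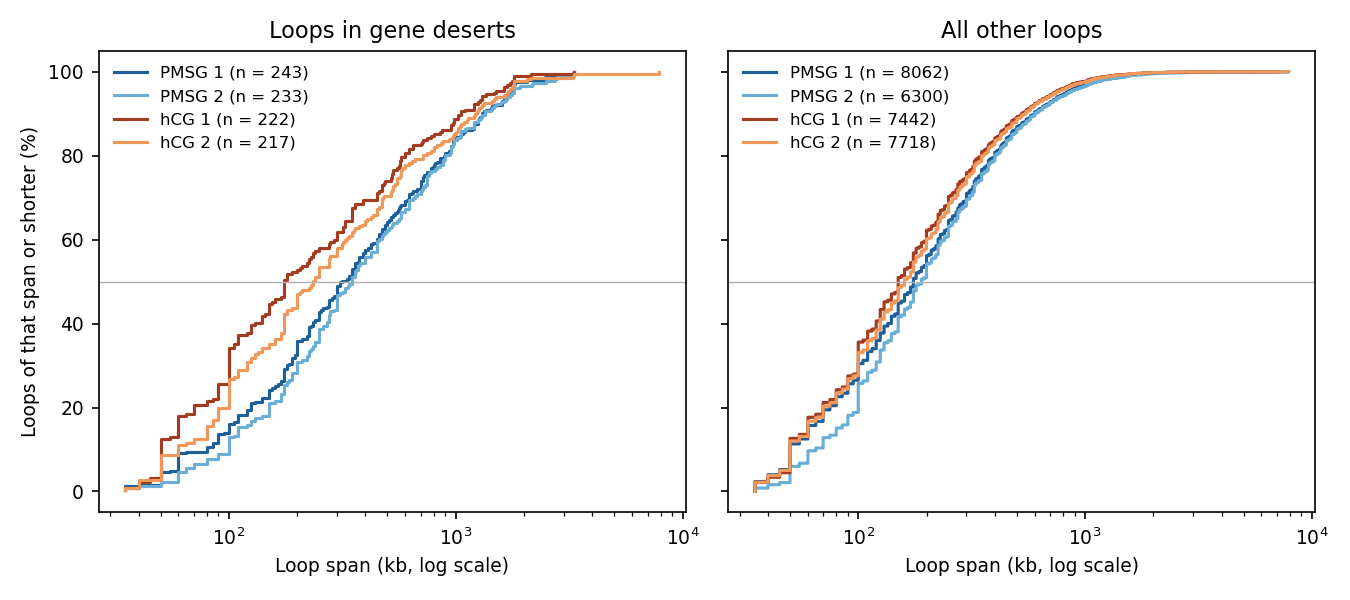
Cumulative share of loop calls by span (anchor midpoint distance in kb, log scale) in each library, for loops in gene deserts (left) and all other loops (right); the grey line marks the median. The desert curves of the hCG libraries lie to the left of the PMSG curves, with medians of 175 and 235 kb against 315 and 350 kb, while the other loops lie closer together at 150 to 190 kb.

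Desert loops with no gene between their anchors and those that reached across genes both had the shorter spans after hCG. Loops within a single gene-free interval made up 61.7%, 60.5%, 66.7% and 62.7% of the desert calls of PMSG replicates 1 and 2 and hCG replicates 1 and 2. Their median spans were 197.5 and 220 kb before hCG and 100 and 125 kb after it. Loops with at least 1 gene between the anchors had medians of 750 and 755 kb against 637.5 and 625 kb. In both kinds the groups did not overlap, with an exact permutation p of 0.333, the smallest possible.

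Over loops of all spans and bin sizes, the contact enrichment of desert loops did not stand on one side of that of other loops. It is given as the observed contact count of the called pixel over the count expected from the ring of pixels around it (the donut expectation). The library medians were 3.90 and 4.20 before hCG and 3.48 and 3.75 after it, with group means of 4.05 ± 0.215 and 3.62 ± 0.190 (SD, n = 2). The PMSG libraries were the upper pair, and the difference of -0.431 had an exact permutation p of 0.333, the smallest possible (adjusted 0.4). It was -0.280 without PMSG replicate 2, and among loops in 5 kb bins it turned to 0.0241. Within each library the desert median minus the median of other loops was 0.230, 0.0390, -0.492 and -0.172, so the libraries differed in sign (mean -0.0987, exact sign-flip p = 0.75). The bins differ as well, since 25 kb bins, which give lower ratios, held 38.7%, 42.9%, 36.5% and 36.9% of desert calls and 24.7%, 34.6%, 29.5% and 27.6% of other calls. Within 10 kb bins the desert median was 4.52, 4.95, 3.87 and 3.98 and that of other loops 3.41, 4.30, 3.90 and 3.67, so the desert loops had the higher ratio in 3 of 4 libraries. Among loops of 100 to 500 kb, in contrast, the desert median was lower, by a mean of -0.563 (exact sign-flip p = 0.125, the smallest possible). A desert pixel typically held 31 to 34 contacts by library median, so single ratios carry a large counting error.

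In each library a smaller share of desert loops than of other loops recurred in all lists. Of the 481 distinct desert loops, 72 (14.97%) were called in all 4 lists, against 29.9% of all distinct loops. A further 46 were called in 3 lists, 28 in 1 PMSG and 1 hCG list, and 268 (55.7%) in a single list, against 40.0% of all distinct loops. The 18 distinct loops left out for calls closer to a gene were 14 of all 4 lists and 4 of 3 lists. Leaving them out lowers the share in all 4 lists and raises that in a single list. With them counted, 86 desert loops were in all 4 lists. Counted within libraries, 32.9%, 32.6%, 34.7% and 36.4% of desert calls belonged to a loop of all 4 lists, against 47.9%, 60.7%, 51.7% and 49.9% of other calls. The desert share was lower in 4 of 4 libraries, with a mean difference of -18.4 ± 6.58 percentage points (SD, n = 4), and the exact sign-flip test gave p = 0.125, the smallest it allows (adjusted 0.375). The gap was widest among short loops. At spans up to 100 kb, 4 of 129 distinct desert loops (3.10%) were in all 4 lists against 24.8% of other loops, between 100 and 500 kb 34 of 214 (15.9%) against 34.4%, and above 500 kb 34 of 138 (24.6%) against 26.8%.

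Libraries of the same treatment shared more desert loops than libraries of different treatments. The Jaccard index, shared loops over all loops of either list, was 0.434 between the PMSG libraries and 0.384 between the hCG ones. The 4 pairs of 1 PMSG and 1 hCG library lay between 0.287 and 0.325. For other loops the pairs of the same treatment stood at 0.537 and 0.551 and the mixed pairs at 0.478 to 0.522. The mean index was thus 0.409 within and 0.300 between treatments for desert loops and 0.544 and 0.499 for other loops, values that share libraries and were not tested.

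Loops called in both libraries of one treatment and in neither of the other were a small part of the desert loops. Both hCG lists, but no PMSG list, held 31 of them (6.44%, with 5.05% among all distinct loops). Both PMSG lists, but no hCG list, held 36 (7.48%, with 3.80% among all). They are called gained and lost here, which says only in which lists a pixel passed the caller's thresholds, since no contact count of an uncalled pixel was used. The gained loops had a median span of 105 kb and the lost loops of 225 kb, while the loops of all 4 lists had 470 kb. Other loops had medians of 100 kb when gained and 245 kb when lost, so that contrast was not particular to deserts. Other loops of all 4 lists had a median of 170 kb. Gene-free loops made up 25 of the 31 gained and 30 of the 36 lost loops, but 31 of the 72 common ones. Gained calls had median ratios of 3.00 and 2.88 in hCG replicates 1 and 2, lost calls of 3.58 and 3.39 in PMSG replicates 1 and 2, and common calls of 5.59, 6.21, 5.86 and 6.03 in the 4 libraries. With each list in turn left out, a class rests on 1 list or is set against 1 list, and 39 loops were gained and 106 lost without PMSG replicate 1. The counts were 39 and 105 without PMSG replicate 2, 91 and 52 when hCG replicate 1 was left out and 103 and 53 when hCG replicate 2 was. Under 5 other settings (stricter FDR, matching within 10 or 50 kb, overlapping anchors, lists of equal length), 10 gained, 13 lost and 28 common loops kept their class in every one.

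**Figure D2:**
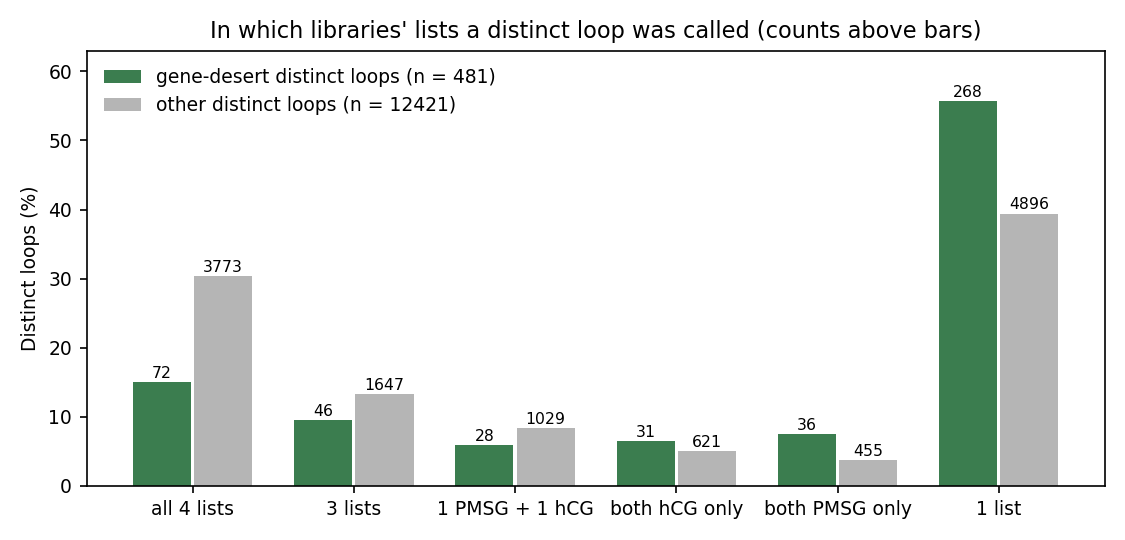
Percentage of distinct loops by the lists in which they were called, for loops in gene deserts (green, n = 481) and other distinct loops (grey, n = 12421), with counts above the bars. Loops of 1 list were 55.7% of the desert loops, and loops of all 4 lists 14.97%.

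At pixels called in the same bin in all 4 lists no change of strength was found. Of 435 such pixels 13 were desert loops. Each had passed the caller's thresholds in every list, so pixels that fell below them in any library were not tested. edgeR's quasi-likelihood test on the contact counts, with the donut expectation as offset and Benjamini-Hochberg adjustment over the 435 pixels, called 0 of them (0%) at an adjusted p of 0.05. An unadjusted p under 0.05 was found at 29 pixels, of which 0 were in deserts, and DESeq2 also called 0, with 1 pixel at an unadjusted p under 0.05. The log2 fold changes of the 13 desert pixels, hCG over PMSG, ran from -0.32 to 0.36 with a median of 0.07, beside 0.12 for all pixels, and 8 of 13 were above 0, beside 68.7% of all. The lowest adjusted p among them was 0.823 in edgeR, at a 230 kb loop between Adam28 and Stc1, the gene of the secreted hormone stanniocalcin. It had 49, 44, 41 and 40 contacts against expectations of 10.02, 9.59, 5.94 and 7.34 in PMSG replicates 1 and 2 and hCG replicates 1 and 2, a log2 fold change of 0.36 ± 0.20 (SE). Its ratios of 4.89 and 4.59 before hCG were below the 6.91 and 5.45 after it.

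**Figure D3:**
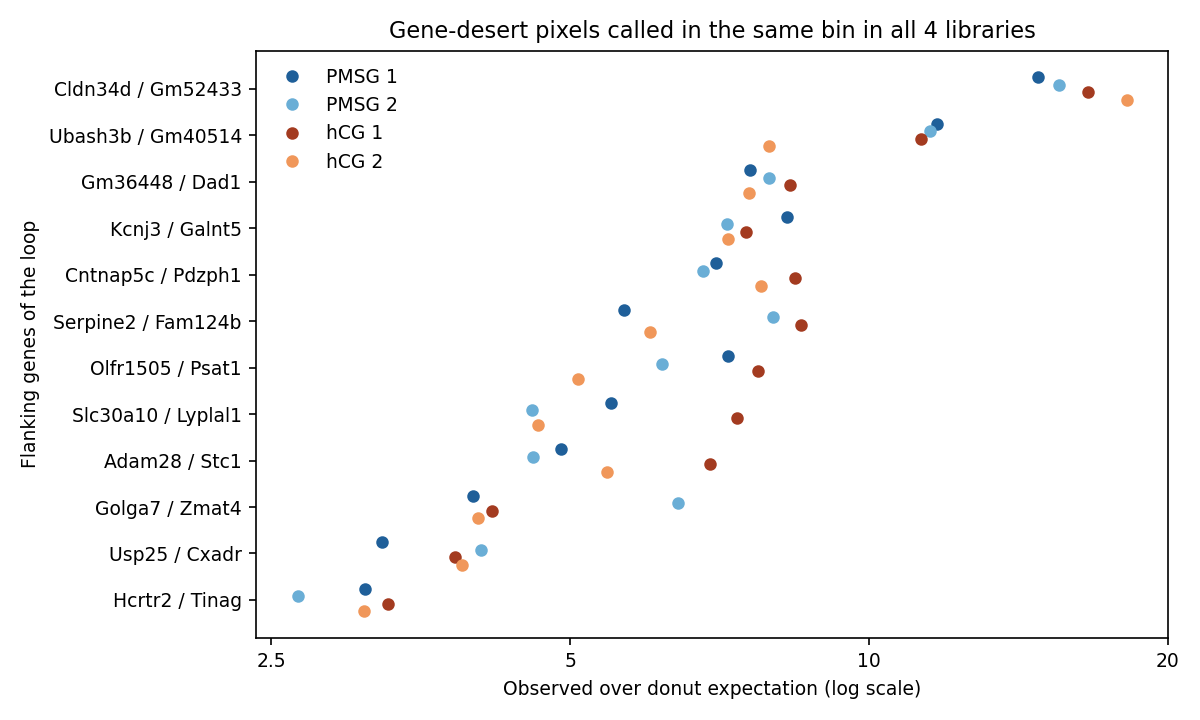
Observed over donut expectation (log scale) in each of the 4 libraries at 12 of the 13 desert pixels called in the same bin in all lists, named by their flanking genes. The loop between Cldn34d and Gm52433 on the X chromosome had the highest ratios, 14.8 to 18.2, and at most loops the blue PMSG and red hCG points intermingle.

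The desert loops were spread over many gene-free intervals, a few of which held several. Of the 481 distinct loops 339 (70.5%) had both anchors in the same interval between adjacent genes, and these occupied 205 intervals of 193 to 4542 kb with a median of 827 kb. A single loop was found in 126 intervals, 2 loops in 54 and at least 3 in 25. The most, 8 each, were found between Inhba and Sugct, Adamts5 and N6amt1, and Gja1 and Hsf2.

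The gap between Inhba and Sugct on chromosome 13 held 5 of the 36 lost desert loops. Inhba encodes the beta A subunit shared by inhibin A and activin A, hormones made by granulosa cells, and Sugct encodes a mitochondrial glutarate-CoA transferase. Desert calls in this 826 kb gap numbered 7 and 6 in the PMSG lists and 0 and 1 in the hCG lists. All loops with an anchor in the gap, those near the genes included, numbered 14 and 11 before hCG and 5 and 5 after it. Lost loops are in no hCG list by definition, so part of this difference is built in. How many of the 205 intervals separate the groups in this way was not counted. Loops of at least 2 lists there used 4 anchor sites, and all 6 possible pairs of these sites were joined by a loop. PMSG replicate 1 called 6 of the pairs, PMSG replicate 2 called 5, hCG replicate 1 called 0 and hCG replicate 2 called 1.

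The 110 kb loop between the second of these sites and the next (chr13:16340001-16345000 and chr13:16450001-16455000) had 32 contacts against 4.28 expected in PMSG replicate 1 and 19 against 3.20 in PMSG replicate 2. The 60 kb loop from the first site (chr13:16280001-16285000) to the second had 28 against 6.24 and 22 against 4.68. The 170 kb loop from the first site to that next one had 14 against 3.15 and 16 against 1.86. All 3 of these loops stood at more than 4 times their expectation in both PMSG lists and were absent from both hCG lists. The 225 kb loop from there to the last site (chr13:16680001-16685000) had 17 against 3.33 and 15 against 1.88. The 335 kb loop from the second site to the last had 27 against 7.61, in a 10 kb bin, and 14 against 1.5. The widest pair, 375 kb in 25 kb bins, was the one that passed after hCG as well. It had 78 contacts against 36.05 in PMSG replicate 1 and 64 against 36.5 in hCG replicate 2. The other pairs were called in smaller bins, so its enrichment cannot be set against theirs. The nearest of the 4 sites lay 243 kb from the body of Inhba. The 110 and 335 kb loops stayed lost under all 5 other settings, and the 60, 225 and 170 kb loops under 4, 3 and 3 of them.

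The gap between Nmbr and Cited2 on chromosome 10 held 3 of the 31 gained loops, which are in no PMSG list by definition. Nmbr encodes the neuromedin B receptor and Cited2 a transcriptional coregulator that binds CBP and p300. The 2952 kb gap held 7 distinct desert loops, and its desert calls numbered 2 and 2 before hCG and 5 and 6 after it. All loops with an anchor in the gap numbered 4 and 5 against 9 and 11. Most lay in the part of the gap nearest to Cited2. The gained 570 kb loop (chr10:16990001-17000000 and chr10:17560001-17570000) had 21 contacts against 5.40 in hCG replicate 1 and 89 against 33.4 in hCG replicate 2. A gained 50 kb loop had 38 against 14.1 and 45 against 15.9, and a gained 105 kb loop had 18 against 3.48 and 41 against 15.2. These 3 loops kept their class under 2, 4 and 3 of the 5 other settings, so their calls were less settled than those beside Inhba. A 140 kb loop common to all lists, from chr10:17410001-17415000 to chr10:17550001-17555000, had 143, 107, 41 and 17 contacts against 69.8, 48.3, 10.6 and 3.05. Its calls fell in bins of 25, 25, 10 and 5 kb, so its ratios of 2.05, 2.22, 3.87 and 5.57 cannot be set against each other. The lncRNA gene Gm32543 overlapped anchors of 4 of the desert loops of this gap.

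**Figure D4:**
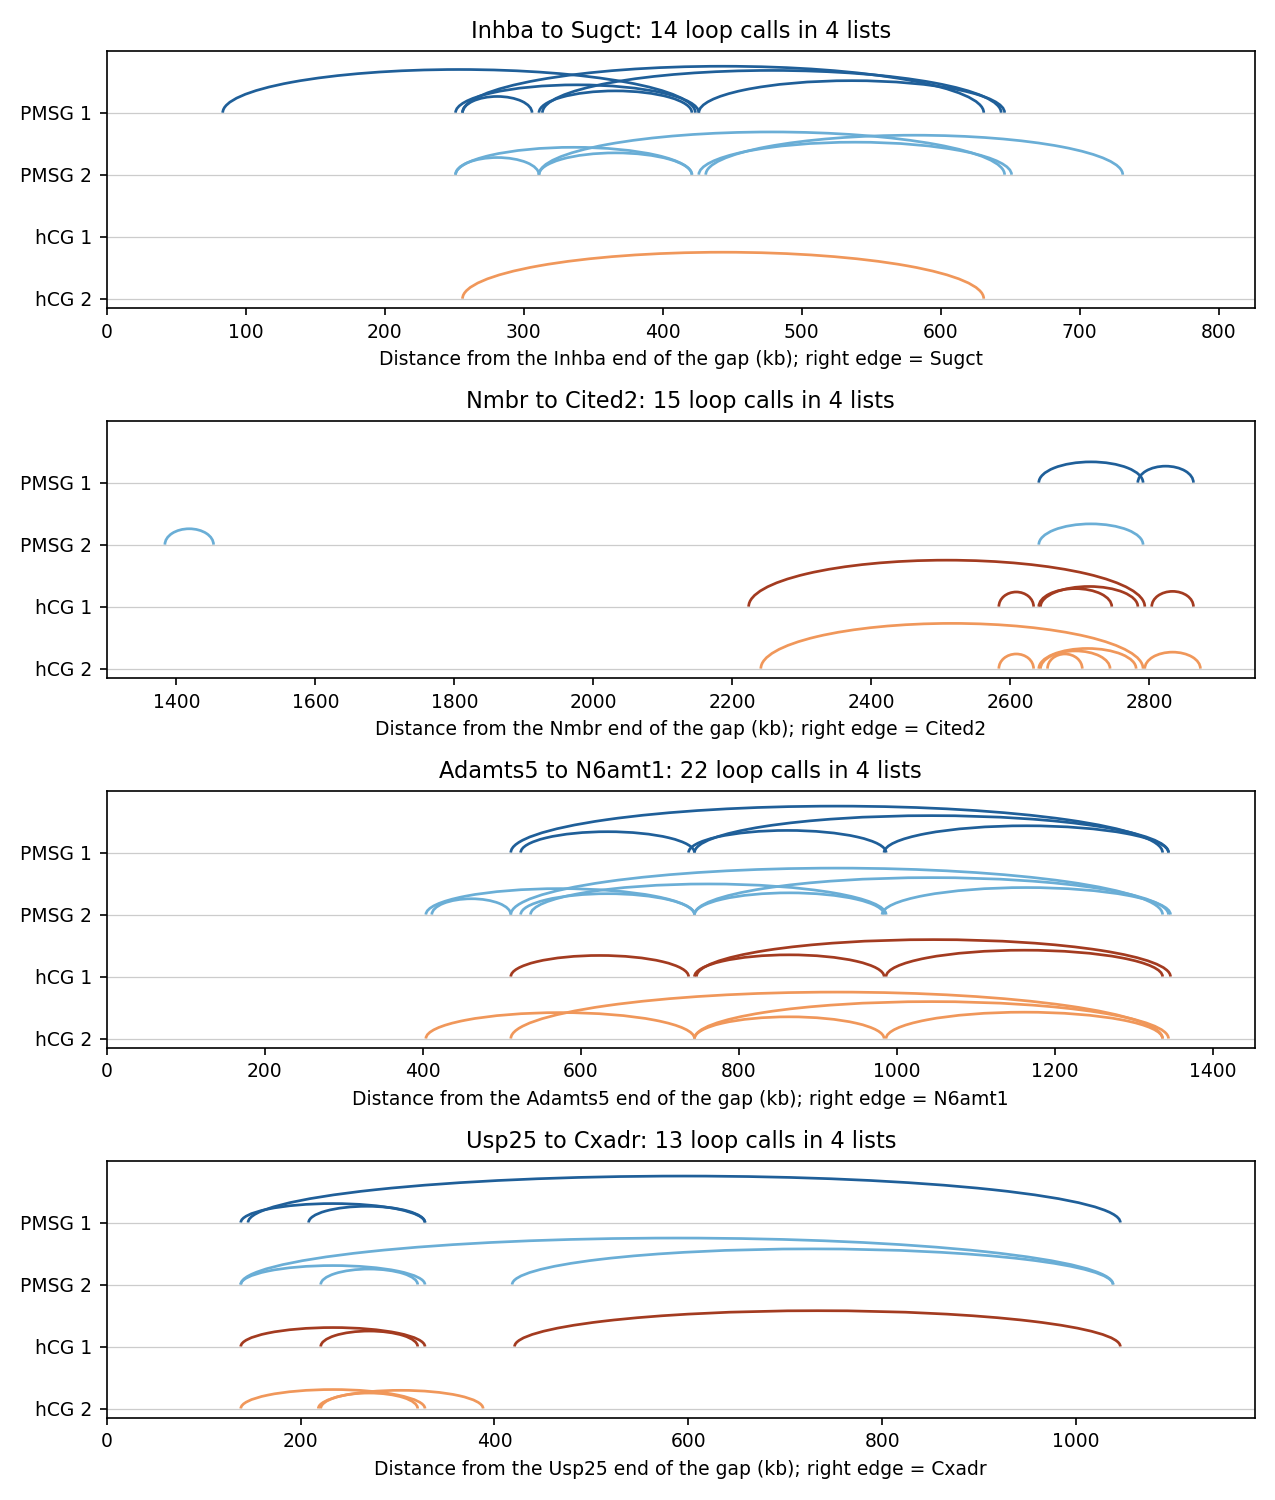
Desert loop calls in 4 gene-free intervals, drawn as arcs between anchor midpoints for each library (x axis: distance in kb from the left gene; arc height follows span within a panel). The Nmbr to Cited2 panel starts at 1300 kb because it holds no desert call before that point. The Inhba to Sugct gap holds 7 and 6 PMSG calls and 0 and 1 hCG calls, and the Nmbr to Cited2 gap 2 and 2 against 5 and 6.

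The gap between Adamts5, which encodes an aggrecan-cleaving protease, and N6amt1, which encodes a methyltransferase subunit, was looped under both treatments. This 1453 kb gap on chromosome 16 held 5, 8, 4 and 5 desert calls in PMSG replicates 1 and 2 and hCG replicates 1 and 2, and 3 of its 8 distinct loops were called in all 4 lists. Those 3 loops formed a triangle on the same 3 sites. The 240 kb loop (chr16:86640001-86650000 and chr16:86880001-86890000) had 84, 29, 42 and 28 contacts against 38.4, 8.66, 7.49 and 8.57, the first in a 25 kb bin. The 600 kb loop had 25, 22, 13 and 24 contacts against 6.03, 4.87, 1.42 and 6.09. The 365 kb loop had 33, 13, 93 and 116 against 9.31, 2.08, 36.5 and 37.9. The expectations of the 600 and 365 kb loops differ widely between libraries, so their contacts cannot be set against each other. The right-hand site (chr16:87245001-87250000) holds the Gm41484 promoter given above. The left-hand site was used by 4 desert loops of at least 2 lists, the most for any of the 376 desert anchor sites, of which 335 were used by 1 loop, 33 by 2 and 8 by 3 or more.

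The gap between Gja1 and Hsf2 on chromosome 10 held 8 desert loops, none of them in all 4 lists. Gja1 encodes connexin 43, the gap junction protein that couples granulosa cells, and Hsf2 a heat shock transcription factor. Desert calls numbered 5 and 4 before hCG and 2 and 1 after it, and 6 of the 8 loops were in a single list. All loops with an anchor in the gap, those near the genes included, numbered 12 and 11 against 9 and 7. The 35 kb loop in this gap (chr10:56490001-56495000 and chr10:56525001-56530000) had 31 contacts against 7.37 in PMSG replicate 1, 19 against 4.52 in PMSG replicate 2 and 39 against 17.7, in a wider bin, in hCG replicate 1. A 175 kb loop of the same gap had 74, 79 and 61 contacts against 28.9, 34.9 and 25.4 in the same 3 libraries. Neither was called in hCG replicate 2.

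The gap between Usp25, a deubiquitinase gene, and Cxadr, which encodes a tight junction adhesion protein, holds Mir99ahg and the miR-99a cluster and was chosen for display after its values were seen. A 190 kb loop was in all 4 lists with 28, 40, 29 and 35 contacts against 8.67, 9.85, 7.58 and 8.99, ratios of 3.23 to 4.06 in which the groups overlapped. A 120 kb common loop had its left anchor (chr16:77320001-77330000) at the Mir99ahg promoter given above, with 37, 139, 115 and 129 contacts against 11.6, 72.1, 57.5 and 64.9, the last 3 in 25 kb bins. A 900 kb loop around the miR-99a, let-7c and miR-125b cluster was lost, with 55 contacts against 16.6 in PMSG replicate 1 and 25 against 4.44 in PMSG replicate 2. A 620 kb loop around the same cluster, with the same right anchor, was called in PMSG replicate 2 (24 against 4.29) and hCG replicate 1 (65 against 25.7). A desert loop around the cluster was thus called in 3 of the 4 lists. Loops with an anchor nearer to a gene were not counted here.

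The strongest desert loops called in all 4 lists, ranked by their smallest ratio, spanned 90 to 3320 kb. First was a 3320 kb loop on chromosome 12 around 26 annotated genes, most of them predicted genes, with 15, 20, 14 and 26 contacts against 0.401, 0.862, 0.146 and 0.799 expected. Ratios this high rest on expectations below 1 contact. The calls of this loop fell in bins of 10, 25, 10 and 25 kb. Contacts and ratios from bins of different sizes cannot be set against each other, here or in the loops around Isl1, Klf6, Pou4f1 and Nrip1 described further on. The 645 kb gene-free loop between Dnah5, a ciliary dynein gene, and Ctnnd2, which encodes delta-catenin, had ratios of 16.1, 23.4, 41.4 and 17.5 in bins of 10, 5, 5 and 10 kb and encloses miR-3964. The 110 kb loop between Cldn34d and Gm52433 on the X chromosome had 43, 52, 48 and 62 contacts against 2.90, 3.35, 2.89 and 3.41. Its ratios of 14.8, 15.5, 16.6 and 18.2 were higher in both hCG libraries, and its edgeR log2 fold change was 0.20 ± 0.16 (SE, adjusted p = 0.89).

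The next loops of that rank spanned 125 to 1630 kb. A 955 kb loop around Klhl1, which encodes an actin-binding kelch protein, had ratios of 12.8, 14.0, 26.0 and 16.6. A 1630 kb loop around Sox9, the testis-determining and cartilage transcription factor, had 15, 20, 15 and 28 contacts against 1.25, 1.81, 1.58 and 2.40, the first in a 5 kb bin and the others in 10 kb bins. A 125 kb loop beside Npvf, which encodes the precursor of gonadotropin-inhibitory peptides, had ratios of 9.09, 10.998, 14.4 and 8.27. A 360 kb loop around Gnai1, an inhibitory G protein subunit gene, had 8.22, 12.5, 10.8 and 9.46. A 235 kb loop with an anchor in Mir100hg had 26, 21, 17 and 17 contacts against 2.22, 1.82, 1.51 and 2.14, and hCG replicate 2 was the low library. The groups overlapped in the Npvf and Gnai1 loops. The hCG ratios were both higher in the Klhl1 loop and both lower in the Mir100hg loop, there by only 11.5 against 11.3. The edgeR log2 fold change of the Mir100hg loop was -0.32 ± 0.24 (SE, adjusted p = 0.89). A split of 2 libraries from 2 has p = 0.333 at best in an exact permutation test. How many loops show such a split was not counted.

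One loop of that rank lay beside immune receptor gene segments. The 90 kb loop between Gm36448 and Dad1 had its anchors in the T cell receptor alpha and delta locus, whose segments are not annotated as protein-coding genes, and 161, 114, 108 and 131 contacts, the most of the 10. Its ratios of 7.59, 7.94, 8.33 and 7.57 lay close together.

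Among the gained loops, ranked by the smaller ratio of their 2 hCG libraries, the first was a 720 kb loop around Kcnj3, a potassium channel gene, with 21 contacts against 2.30 and 22 against 2.54. It kept its class under all 5 other settings, as did the gained loops between Id2 and Rnf144a (90 kb; 30 against 9.32 and 41 against 11.4), Eci2 and Cdyl (70 kb; 44 against 11.9 and 45 against 14.0) and Kctd16 and Prelid2 (120 kb; 21 against 5.42 and 13 against 1.42). Id2 encodes an inhibitor of helix-loop-helix transcription factors. The 85 kb loop between Runx1, a transcription factor gene of the ovulatory response list, and Setd4 had 46 contacts against 12.3 and 20 against 4.04, and kept its class under 3 of 5 settings. It lay 379 kb from Runx1. A 155 kb loop around Pmaip1, which encodes the pro-apoptotic protein Noxa, had 14 against 1.52 and 41 against 8.55. The remaining loops of the 10 were a 45 kb loop between Alcam and Zpld1, a 50 kb loop between Gm8765 and Spin1 and a 105 kb loop between Rbms1 and Tank, with smaller ratios of 5.12, 3.35 and 3.00, and the 2150 kb loop around Epha5, an ephrin receptor gene. The last had 27 contacts against 6.06 and 31 against 6.02, and PMSG replicate 2 held a 2175 kb loop between the same flanking genes, outside the match distance, with a ratio of 2.88. Apart from the Kcnj3, Pmaip1 and Epha5 loops, the 10 spanned 45 to 120 kb and enclosed no gene.

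Among the lost loops, ranked in the same way by their PMSG libraries, 4 of the first 10 were those beside Inhba described above. The first of the 10 was a 105 kb loop between Ncam1, a neural adhesion gene, and Plet1, with 20 contacts against 2.79 and 17 against 1.62. A 1580 kb loop around Nr4a2 and Gpd2 had 17 against 2.59 and 26 against 2.91. From the same left anchor (chr2:56110001-56120000) a 1720 kb and a 1800 kb loop were called in all 4 lists, the longer one with 26, 28, 20 and 23 contacts against 3.14, 3.89, 2.66 and 3.19. The loops around Nr4a2, an orphan nuclear receptor gene, thus differed in class although they shared an anchor. The others were a 65 kb loop between Dsel and Cntnap5a (17 against 2.72 and 17 against 2.71), a 185 kb loop between Trib2 and Lpin1 (22 against 3.66 and 13 against 1.97), a 370 kb loop between Kif2b and Car10 (13 against 1.26 and 27 against 5.64) and a 200 kb loop between Pdzrn3 and Cntn3 (32 against 7.08 and 28 against 6.20). The Dsel, Kif2b and Pdzrn3 loops kept their class under all 5 settings.

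The longest desert loops of at least 2 lists were the 3320 kb loop described above, the 2150 kb Epha5 loop and a 3270 kb loop around Zfhx4, a homeobox gene. The Zfhx4 loop had 17, 21 and 17 contacts against 1.64, 2.64 and 1.49 in the PMSG libraries and hCG replicate 2. The shortest were the 35 kb loop beside Gja1, a 35 kb loop between Ccnd2 and Parp11 and a 40 kb loop between Unc5d and Dusp26. The loop beside Ccnd2, which encodes cyclin D2 of proliferating granulosa cells, had 50, 16 and 24 contacts against 10.9, 4.86 and 5.46 in PMSG replicate 1 and hCG replicates 1 and 2. It was not called in PMSG replicate 2. The loop beside Unc5d, a netrin receptor gene, was in all 4 lists with ratios of 5.10, 7.58, 5.17 and 16.3, the first in a 10 kb bin and the others in 5 kb bins.

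Desert loops framed single genes in many places. Between the anchors 98 distinct loops held exactly 1 protein-coding gene and 44 held more. Isl1, a LIM homeobox gene, lay inside 3 loops of all 4 lists, of 1040, 1260 and 1480 kb, which shared their right anchor at chr13:116710001-116715000. The widest had 26, 13, 28 and 22 contacts against 5.26, 1.39, 4.15 and 4.81. Klf6, a zinc finger transcription factor gene, lay inside common loops of 1810 kb (17, 14, 29 and 14 contacts against 1.61, 1.60, 4.69 and 1.88) and 1695 kb. A gained 60 kb loop stood near their left anchors, with 36 contacts against 12.7 and 35 against 13.3. Has2, whose enzyme makes the hyaluronan of the expanding cumulus, lay inside a common 520 kb loop with 20, 21, 64 and 71 contacts against 3.65, 4.81, 15.8 and 18.6, the hCG calls in 25 kb bins. A lost 275 kb loop ended near the left anchor of the Has2 loop, with 65 contacts against 24.04 and 59 against 24.6. Kitl, the gene of the KIT ligand, lay inside a common 530 kb loop whose left anchor was 373 kb from Dusp6, a MAP kinase phosphatase gene, with ratios of 3.88, 4.09 and 3.46 in 10 kb bins and, in hCG replicate 2, of 10.4 in a 5 kb bin. Outside the naming rule, and chosen after their values were seen, Bmp4 lay inside a common 570 kb loop and Angpt1 inside a lost 700 kb loop.

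Genes beside or inside desert loops were counted in lists of known function, for loops of at least 2 lists. Of all 21627 protein-coding genes 392 (1.81%) were the nearest gene on one side of such a loop or lay between its anchors. No limit was set on the distance, and Cntnap5a, for example, lay 3305 kb from a common loop. The counts were 13 of 108 developmental transcription factors (12.0%), 17 of 71 neuronal and synaptic adhesion genes (23.9%), 4 of 34 axon guidance genes (11.8%), 6 of 31 granulosa transcription factors (19.4%), 4 of 40 ovulatory response genes and 5 of 25 follicular granulosa genes. Markers of other cells of the ovary gave 2 of 12 for theca and stroma (Nr2f2 and Dcn), 1 of 12 for endothelium (Cdh5), 1 of 9 for immune cells (Ptprc) and 0 of 12 for oocytes. A gene beside a long gap has more room for such a loop. Of all genes 12.0% border a gap of over 200 kb, against 69.4% of the developmental factors, 85.9% of the adhesion genes, 54.8% of the granulosa factors and 10 of the 25 follicular genes. Among genes that do, the nearest gene of such a loop was found for 11.1% of all, 9.33% of the developmental factors, 24.6% of the adhesion genes, 11.5% of the axon guidance genes, 5 of 17 granulosa factors, 4 of 15 ovulatory and 4 of 10 follicular genes. Markers of other ovarian cells gave shares as high from small numbers, 2 of 6 for theca and stroma, 1 of 4 for endothelium and 1 of 1 for immune cells, and 0 of 1 for oocytes. The developmental factors thus stood near the share for all genes once the gap was considered. These shares are descriptions of chosen lists and were not tested.

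The granulosa and ovulatory genes of those lists included Nr5a2, Runx1, Klf6, Nr4a2, Nrip1, Has2, Cited2, Dusp6, Inhba, Gja1, Ccnd2 and Kitl. Nr5a2, a nuclear receptor gene needed for ovulation, was followed by a gained 120 kb loop (31 and 38 contacts), a lost 100 kb loop with 200 and 127 contacts, and a 60 kb loop of 1 list from each treatment, in the gap to Ptprc. The gained loop kept its class under 2 of the 5 other settings and the lost loop under 4. The lost loop was called in 25 kb bins, and its smaller ratio of 1.79 cannot be set against those of loops in smaller bins. Nrip1, which encodes a nuclear receptor corepressor needed for ovulation, lay inside a 1200 kb loop of 3 lists with 64, 26 and 56 contacts against 22.8, 5.59 and 18.2 in the PMSG libraries and hCG replicate 1. Among the developmental factors, Sox2 lay inside loops of 870 and 1250 kb in 3 lists each. Pou4f1 lay inside a common 780 kb loop with 27, 38, 18 and 57 contacts. Sox9 was also flanked, at 672 kb, by a gained 570 kb loop with 15 contacts against 2.46 and 46 against 17.4. Adhesion genes that were the nearest gene on one side of common loops included Tenm2, Cadm2 and Csmd1. The Tenm2 loops spanned 555 and 1010 kb and lay 2353 kb from that gene. The longer Cadm2 loop spanned 390.0 kb and lay 635 kb from its gene. The Csmd1 loop spanned 460.0 kb, at a distance of 163 kb.

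At the anchors themselves 246 of the 481 desert loops (51.1%) overlapped no annotated gene of any kind. An lncRNA gene was at an anchor of 196 loops (40.7%), a pseudogene at 39 and a microRNA gene at 4. Among the 213 loops of at least 2 lists an lncRNA gene was at an anchor of 75 (35.2%).

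Desert loops were spread unevenly over chromosomes. Per 10 Mb of desert sequence, chromosome 10 held 10.1 distinct loops and chromosome 16 held 9.42, against 1.80 on the X chromosome and 2.76 on chromosome 18. As shares of all calls of the chromosome, desert calls were 5.09%, 6.43%, 3.49% and 1.99% in that order, beside 3.01% over all chromosomes. The X chromosome had the fewest calls of any kind, 688, so its low density was not particular to desert loops. Chromosome 10 had the most, with 45 distinct loops from 92 calls, 8 of them common, 4 gained and 3 lost. The X chromosome had 14, of which 2 were common, 0 gained and 0 lost, in 77.9 Mb of desert.

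Calls far from genes were a smaller part of the loops of all 4 lists. Over the distinct loops the median distance of the nearer anchor to a gene was 118 kb and the largest 1515 kb, at a gained 175 kb loop between Dsel and Cntnap5a. The calls just inside the threshold, 50 to 60 kb from a gene, numbered 119, with a median span of 350 kb, a median ratio of 4.26 and 47.9% in loops of all 4 lists. The 150 calls just outside it, 40 to 50 kb from a gene, had 280 kb, 3.81 and 39.3%. The nearest to the threshold lay at 50.1 kb on the inner side and 49.99 kb on the outer. Of the 211 calls over 200 kb from a gene 23.7% were in loops of all 4 lists, with a median span of 200 kb and a ratio of 3.79, and of the 38 over 500 kb away 10.5% were. These values pool calls of 4 libraries and are descriptions without a test.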

How the data were processed

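Micro-C libraries were made with the Dovetail Micro-C kit, per the labels' protocols, and BWA and Juicer were used with mm10, per the submitters' processing notes. The lists come from juicer_tools 1.22.01, per the file headers, with the columns of its loop caller HiCCUPS and bins of 5, 10 and 25 kb. The deposited columns are, per the file headers, a contact count observed at the pixel, 4 local expected contact signals, their FDR as q-values (all under 0.1) and a score that was not used. The version of BWA and the read filters are not stated in them.

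Loops were called in each library separately, so a deeper library can pass more loops. Genes were the 21627 RefSeq protein-coding genes on chromosomes 1 to 19 and X (GRCm38.p6), and 27923 non-coding genes. The table gives no exons. No genome sequence was used here, so anchors were not searched for motifs. The ratio is the observed count over the donut expectation. A loop's position is that of its call in the smallest bins.

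Members, gene lists and tests were chosen with earlier results of these data known. Named were the 10 common, gained and lost loops with the highest smallest ratio, the 3 longest and shortest of at least 2 lists, the 3 fullest intervals (3 tied at 8), and list members beside or inside loops of at least 2 lists. One gene, and the loop beside it, that this rule names is not reported here. Tests over libraries were exact permutations. Pixel strength was tested with edgeR 4.0.16 (DESeq2 1.42.0 as alternative) in R 4.3.3, after a test on simulated counts. Libraries were not paired by replicate number. The correlation of deviations between the libraries of replicate 1 was -0.0157 over the 435 pixels. At such low counts it cannot show whether libraries share animals or days. Other steps used Python 3.11.15, pandas 2.3.3 and numpy 2.4.6. Alternatives were gene distance, FDR, bin size, matching rule, expectation, list length and each library left out. PCR copies may inflate contacts, so intervals cover counting error only.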

Additional observations from a re-analysis of the deposited data

How the results depend on the processing

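The hCG minus PMSG differences in the share and span of desert loops, the excess of their span over other loops and their lower share in loops of all 4 lists kept their sign in every alternative run. With one library left out each time they ranged from -0.751 to -0.110 points, from -157.5 to -97.5 kb, from 80 to 125 kb and from -21.5 to -17.1 points. The enrichment difference ranged from -0.583 to -0.280 in those runs, and reversed to 0.0241 among 5 kb bins. Desert minus other enrichment, -0.0987, had no settled sign, which was the same in 8 alternative runs and reversed in 6. Its lowest values were -0.563 among loops of 100 to 500 kb and -0.3375 with a gene distance of 100 kb. The exact sign-flip p was 0.125 in each, the smallest possible. The difference was 0.0454 with a gene distance of 25 kb, 0.603, 0.511 and 0.0462 within 5, 10 and 25 kb bins, and 0.00331 with the horizontal expectation. It was -0.208 to 0.0325 with one library left out, the positive value without hCG replicate 1.

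Common desert loops numbered 125 with a gene distance of 25 kb, 37 with 100 kb and 47 when both anchors had to overlap, against 72. The first pair follow from the wider and narrower membership. With one library left out, 78 to 88 were common, 39 to 103 gained and 52 to 106 lost. All other alternatives kept these counts within 1.5 times. With the replicate block, edgeR called 0 desert pixels, as it did under every other setting, and the block changed no call.

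The limits are the 2 libraries per group, for which p cannot go below 0.333, and pixels of about 33 contacts. A loop absent from a list has no count here, so gained and lost cannot be told apart from loops near the caller's threshold.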
